A study of Mus musculus with 12 samples.

Results

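The genes described are 10 targets of the transcription factor NRF2 that act in the pentose phosphate pathway and other NADPH supply, on quinones and aldehydes, on heme or in the thioredoxin system: Nqo1, Hmox1, Txnrd1, Srxn1, G6pdx, Pgd, Taldo1, Me1, Aox1 and Slc48a1. They were found by symbol as 10 of the 25861 genes in the table of read counts, and all 10 had enough counts to be tested among 17025 genes. They had been picked because several of them followed Nfe2l2, the gene of NRF2, between 2 hairpins against Cldn7. The difference between these hairpins therefore chose the members, and it is given as a description with no test.

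RNA was sequenced from tumour organoids of MMTV-Neu mice, whose mammary epithelium carries the Neu (Erbb2) oncogene under a mammary tumour virus promoter. The sh2Cldn7 group and the sh1Cldn7 group each carried a different lentiviral short hairpin RNA against Cldn7, which encodes the tight junction protein claudin 7, and the shControl group carried a non-targeting hairpin. All 3 groups, with 4 libraries each, came from freshly isolated primary tumours, were infected at a multiplicity of 20, put under 3 µg/ml puromycin over 3 days, supplied with 2.5 nM FGF2 and kept in collagen I gels for 5 days; the labels call the shControl group wild type and the cells primary epithelial cells. The stated question of the study was the part Cldn7 plays in invasion and metastasis. No label tells if the replicates are different animals or cultures. The p-values therefore measure only how far these samples spread, and that spread may be technical.

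NRF2 is a basic leucine zipper protein that pairs with small MAF proteins and binds antioxidant response elements near its target genes. In resting cells KEAP1 holds it for degradation, and oxidants or electrophiles release it, so much of its control lies in the protein and not in the messenger RNA. BACH1, a repressor that binds heme, occupies many of the same elements. The enzymes described here share a currency: G6pdx, Pgd and Me1 make NADPH, and Nqo1 and Txnrd1 spend it.

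Total counts per library ranged from 34988358 to 76329473, and the lowest count of any of the 10 genes in any library was 2144. Libraries of replicates 1 and 2 held 34988358 to 44645514 counts and those of replicates 3 and 4 held 68581024 to 76329473. Luminal epithelial markers, 9 of 9 found, summed to 3268 to 5864 CPM (counts scaled to a common library size, edgeR's CPM). The lowest sums of each group were those of replicate 4, at 3326 CPM in sh2Cldn7, 3268 in sh1Cldn7 and 3460 in shControl. Cldn7 itself stood at 27.4, 25.4, 34.7 and 26.1 CPM in sh2Cldn7 replicates 1 to 4, at 31.1, 30.0, 44.2 and 29.0 CPM in sh1Cldn7, and at 144, 136, 186 and 101 CPM in shControl. It fell with both hairpins together by 2.18 on the log2 scale (SE 0.07, edgeR adjusted p = 1.63e-07).

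Nfe2l2, by which the genes were picked, lay on opposite sides of the control with the 2 hairpins. It stood at 74.3, 75.8, 77.4 and 85.0 CPM in sh2Cldn7, at 161, 148, 173 and 169 CPM in sh1Cldn7, and at 105, 106, 121 and 107 CPM in shControl. The 3 groups did not overlap. The fitted log2 fold change against shControl was -0.49 (SE 0.06) with sh2Cldn7 and 0.57 (SE 0.06) with sh1Cldn7. In such bulk libraries fewer cells of a type and less RNA per cell cannot be told apart.

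The same order of groups, sh2Cldn7 lowest and sh1Cldn7 highest, was seen in most of the 10 targets. Against sh1Cldn7, all 10 were lower in sh2Cldn7 in every one of the 4 pairs that share a replicate number. Of all genes tested, 14.9% were lower and 15.6% higher in 4 of 4 pairs, and the rule that chose the 10 used this contrast. Their fitted log2 fold changes ran from -1.06 (Aox1) to -0.39 (Me1), with a median of -0.65 where the median of all genes tested was 0.0082. The median over the 10 genes was -0.78, -0.59, -0.52 and -0.71 in pairs 1 to 4, so no pair carried it alone. Against shControl, 10 of 10 had a negative fold change with sh2Cldn7 and 9 of 10 a positive one with sh1Cldn7. The medians of all genes tested were 0.0044 and -0.0019. Among the 9, Me1 was at only 0.0049 (SE 0.08).

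**Figure D1:**
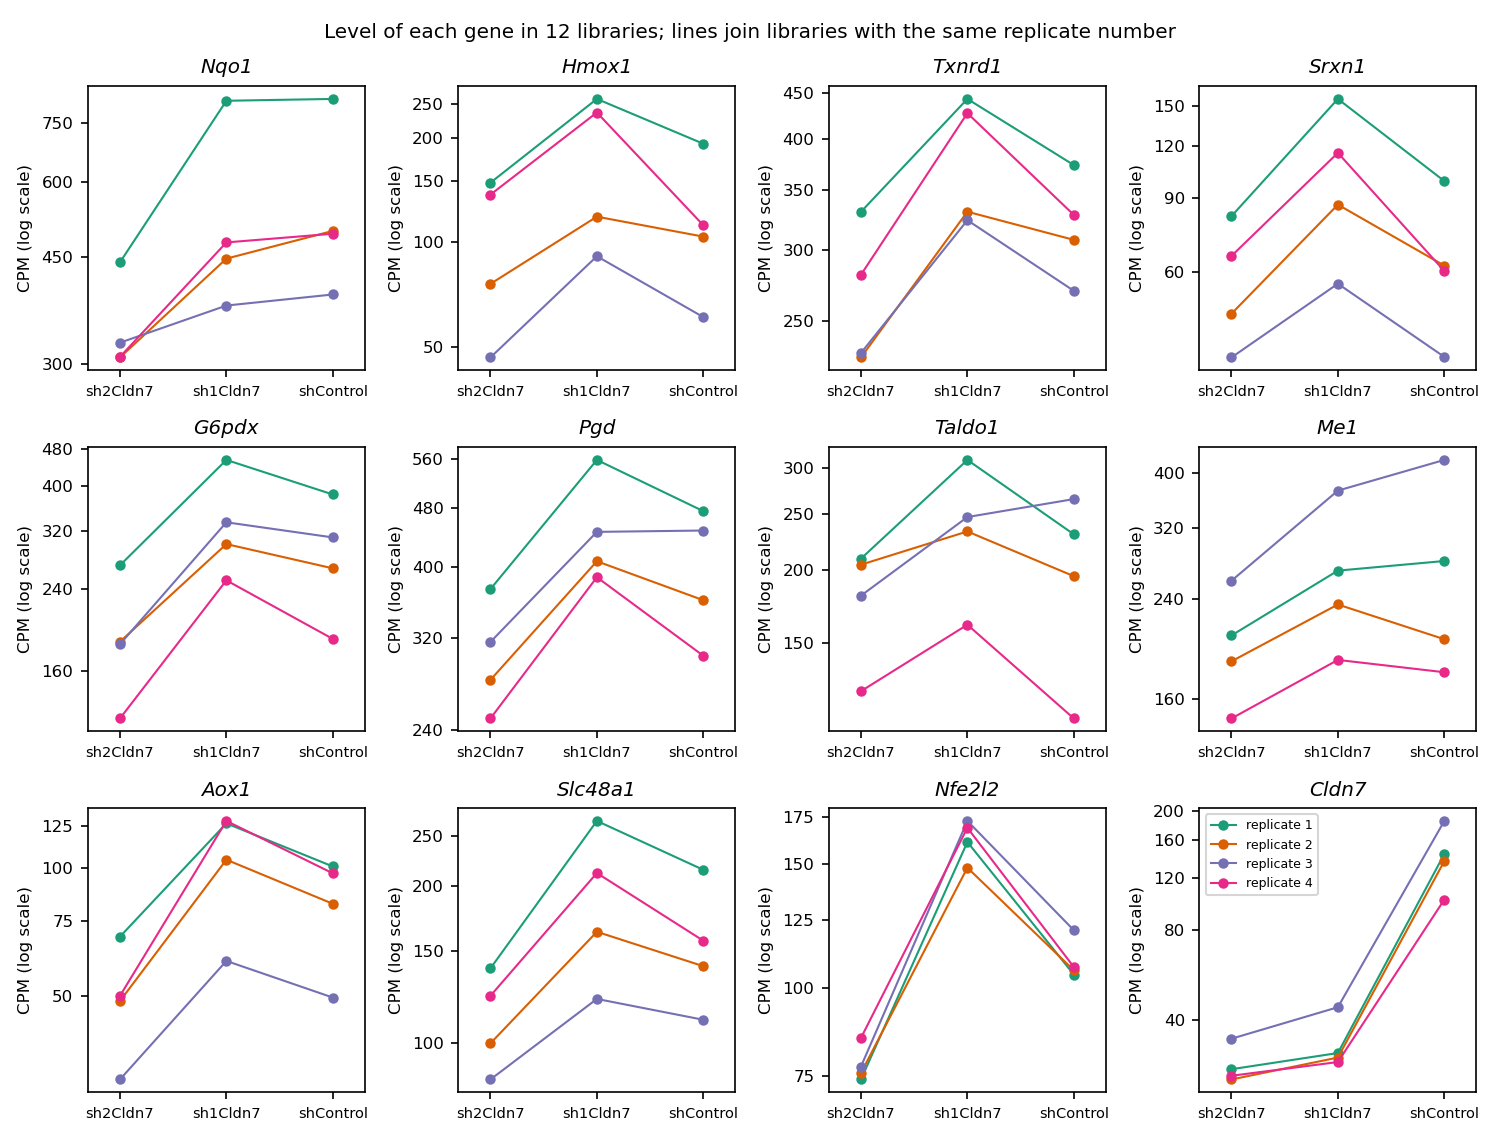
Level in CPM (log scale) of the 10 targets, Nfe2l2 and Cldn7 in 12 libraries; each line joins the sh2Cldn7, sh1Cldn7 and shControl libraries of 1 replicate number. In each panel of the 10 targets and Nfe2l2 every line is lower at sh2Cldn7 than at sh1Cldn7, and the lines are spread over a wider range for Hmox1 and Srxn1 than for Nfe2l2.

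Sequence around the start of transcription is shown for 4 of the 5 genes whose windows hold the core of the antioxidant response element, as examples from the NADPH and thioredoxin genes; the fifth is Pgd. Windows of 300 bases, from 250 bases before the start to 50 after it, were taken from RefSeq on GRCm38.p6 and were found for 8 of the 10 genes, 12 windows in all; Hmox1 and Slc48a1 are named only. The core was searched as TGACNNNGC on both strands, together with the related TGANTCA bound by AP-1 proteins. Matches of both motifs can share bases, as in Me1 but not in Srxn1. TGACNNNGC stood in 5 of the 12 windows, those of Txnrd1, Srxn1, G6pdx, Pgd and Me1, and in 12.4% of all 32851 windows. TGANTCA stood in 3 of the 12, those of Srxn1, Me1 and Aox1, and in 7.81% of all windows. Capitals mark the matches of either motif, which read as the reverse complement where the match is on the opposite strand.
Srxn1 (chr2:152105274-152105573, plus strand): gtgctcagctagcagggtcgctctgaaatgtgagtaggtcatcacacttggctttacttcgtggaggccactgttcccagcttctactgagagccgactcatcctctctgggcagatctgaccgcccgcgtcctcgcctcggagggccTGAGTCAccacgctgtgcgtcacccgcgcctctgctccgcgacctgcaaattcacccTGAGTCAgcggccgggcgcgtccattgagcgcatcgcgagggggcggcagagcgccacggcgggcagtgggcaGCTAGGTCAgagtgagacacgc
Me1 (chr9:86695865-86696164, minus strand): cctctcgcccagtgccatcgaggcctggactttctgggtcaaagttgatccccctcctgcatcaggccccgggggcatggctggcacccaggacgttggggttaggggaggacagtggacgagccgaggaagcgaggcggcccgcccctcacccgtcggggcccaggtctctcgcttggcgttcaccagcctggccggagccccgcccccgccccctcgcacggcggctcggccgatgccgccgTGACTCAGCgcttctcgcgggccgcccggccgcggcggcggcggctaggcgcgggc
G6pdx (chrX:74428831-74429130, minus strand): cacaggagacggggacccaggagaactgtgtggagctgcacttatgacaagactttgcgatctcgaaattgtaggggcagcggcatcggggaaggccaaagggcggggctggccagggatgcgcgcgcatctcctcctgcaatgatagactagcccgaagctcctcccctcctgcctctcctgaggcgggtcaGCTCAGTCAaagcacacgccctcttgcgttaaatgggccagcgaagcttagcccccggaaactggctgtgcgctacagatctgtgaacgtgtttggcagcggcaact
Txnrd1 (chr10:82858956-82859255, plus strand): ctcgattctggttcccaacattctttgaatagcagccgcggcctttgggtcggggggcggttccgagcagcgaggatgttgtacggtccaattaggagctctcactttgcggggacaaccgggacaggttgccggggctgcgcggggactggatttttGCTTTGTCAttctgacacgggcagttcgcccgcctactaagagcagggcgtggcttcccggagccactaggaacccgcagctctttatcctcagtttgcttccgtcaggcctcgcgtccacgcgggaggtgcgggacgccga

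In Me1 the element TGACTCAGC lay over the start, from base -6 to base 2 with the start as base 0, and it holds both motifs. The match in G6pdx read TGACTGAGC on the opposite strand, at bases -57 to -49. Srxn1 held TGAGTCA at bases -102 to -96 and -45 to -39, and TGACCTAGC on the opposite strand at 28 to 36. The Txnrd1 window is that of the second of 3 annotated starts, with TGACAAAGC on the opposite strand at -92 to -84. A match is only a description of these letters, and none in the windows of Nqo1 and Taldo1 says nothing of elements farther away.

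The enzymes that make NADPH in the pentose phosphate pathway come first. G6pdx (NCBI Gene 14381; chromosome X, 74409483 to 74429194, GRCm38, minus strand) encodes glucose-6-phosphate dehydrogenase, which opens the oxidative branch. It stood at 270, 185, 182 and 126 CPM in sh2Cldn7, at 455, 300, 334 and 250 CPM in sh1Cldn7, and at 383, 266, 310 and 187 CPM in shControl. Within every replicate number the order was sh2Cldn7, shControl, sh1Cldn7 from low to high, although the ranges of the groups overlapped. The log2 fold change was -0.59 (SE 0.07) with sh2Cldn7 and 0.24 (SE 0.06) with sh1Cldn7 against shControl, so that sh2Cldn7 held 56.3% of the sh1Cldn7 level. Counts of G6pdx are slightly uncertain, since 11 of 258 stretches of 75 bases sampled from its transcript also occur in G6pd2 or Ikbkg and its exons overlap those of Ikbkg on the opposite strand.

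Pgd (NCBI Gene 110208; chromosome 4, 149149991 to 149166771, minus strand) encodes phosphogluconate dehydrogenase, the next NADPH-making enzyme of the branch. It stood at 373, 281, 316 and 249 CPM in sh2Cldn7, at 558, 407, 446 and 387 CPM in sh1Cldn7, and at 476, 360, 448 and 303 CPM in shControl. Its highest sh2Cldn7 library, at 373 CPM, lay below its lowest sh1Cldn7 library, at 387 CPM, in the contrast that chose the genes. Against shControl the log2 fold change was -0.38 (SE 0.06) with sh2Cldn7 and 0.19 (SE 0.06) with sh1Cldn7; in replicate 3 the sh1Cldn7 and shControl libraries differed by -0.0061.

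Taldo1 (NCBI Gene 21351; chromosome 7, 141392199 to 141402968, plus strand) encodes transaldolase of the non-oxidative branch, which makes no NADPH itself. It stood at 209, 204, 181 and 124 CPM in sh2Cldn7, at 310, 233, 247 and 161 CPM in sh1Cldn7, and at 231, 195, 265 and 111 CPM in shControl. Its sh2Cldn7 library was below shControl in replicates 1 and 3 and above it in replicates 2 and 4, so only the difference between the hairpins had 1 sign in all pairs. The log2 fold change against shControl was -0.12 (SE 0.11) with sh2Cldn7 and 0.27 (SE 0.11) with sh1Cldn7.

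Me1 (NCBI Gene 17436; chromosome 9, 86581371 to 86695953, minus strand) encodes the cytosolic malic enzyme, a source of NADPH outside the pentose phosphate pathway. It stood at 207, 187, 259 and 148 CPM in sh2Cldn7, at 270, 235, 373 and 188 CPM in sh1Cldn7, and at 280, 204, 422 and 179 CPM in shControl. The sh2Cldn7 library was the lowest of its replicate number in all 4, while sh1Cldn7 was above shControl in 2 pairs and below it in 2. Fitted against shControl, Me1 had a log2 fold change of -0.39 (SE 0.08) with sh2Cldn7 and 0.0049 (SE 0.08) with sh1Cldn7. Of 322 stretches of 75 bases sampled from its transcript, 74 also occur in the predicted genes Gm48795, Gm7049 and Gm7329, so its counts are uncertain.

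The enzymes that act on quinones and aldehydes differed from each other in their place relative to the control. Nqo1 (NCBI Gene 18104; chromosome 8, 107388225 to 107403206, minus strand) encodes an NAD(P)H quinone reductase that is a standard readout of NRF2. It stood at 441, 307, 325 and 308 CPM in sh2Cldn7, at 816, 447, 374 and 476 CPM in sh1Cldn7, and at 822, 497, 390 and 492 CPM in shControl. Unlike the other 9, it had a negative fold change with sh1Cldn7 too, and its sh1Cldn7 library was the lower in 4 of 4 pairs, by 0.010 to 0.15 on the log2 scale. The log2 fold change against shControl was -0.63 (SE 0.10) with sh2Cldn7 and -0.07 (SE 0.10) with sh1Cldn7.

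Aox1 (NCBI Gene 11761; chromosome 1, 58029931 to 58106413, plus strand) encodes a molybdenum-containing aldehyde oxidase. It stood at 68.9, 48.7, 31.9 and 50.1 CPM in sh2Cldn7, at 127, 104, 60.5 and 129 CPM in sh1Cldn7, and at 101, 82.3, 49.7 and 97.0 CPM in shControl. It had the largest difference between the hairpins of the 10 genes, with sh2Cldn7 at 47.8% of the sh1Cldn7 level. Its log2 fold change against shControl was -0.72 (SE 0.08) with sh2Cldn7 and 0.34 (SE 0.07) with sh1Cldn7, and the 4 pairs of sh1Cldn7 with shControl lay between 0.28 and 0.41.

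For heme, the pair of genes comprises an importer into the cytosol and the enzyme that breaks it down. Slc48a1 (NCBI Gene 67739; chromosome 15, 97778520 to 97792692, plus strand) encodes a transporter that moves heme out of endosomes and lysosomes. It stood at 139, 100.02, 85.3 and 123 CPM in sh2Cldn7, at 267, 164, 122 and 212 CPM in sh1Cldn7, and at 215, 141, 111 and 157 CPM in shControl. In all 4 replicate numbers sh2Cldn7 was the lowest and sh1Cldn7 the highest, with log2 fold changes against shControl of -0.46 (SE 0.07) and 0.27 (SE 0.07).

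Hmox1 (NCBI Gene 15368; chromosome 8, 75093621 to 75100589, plus strand) encodes heme oxygenase 1, which splits heme into biliverdin, iron and carbon monoxide. It stood at 148, 76.04, 46.7 and 137 CPM in sh2Cldn7, at 258, 119, 91.3 and 236 CPM in sh1Cldn7, and at 192, 104, 61.1 and 112 CPM in shControl. The sh1Cldn7 library was the highest in all 4 replicate numbers, while sh2Cldn7 was below shControl in replicates 1 to 3 and above it in replicate 4. The log2 fold change against shControl was -0.24 (SE 0.12) with sh2Cldn7 and 0.56 (SE 0.12) with sh1Cldn7.

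Macrophages and red cells carry much of the heme traffic of a tissue, so their markers are set beside these genes. The 13 macrophage markers, all in the table, summed to 35.8, 56.0, 2.84 and 4.96 CPM in sh2Cldn7 replicates 1 to 4, to 64.1, 58.8, 4.90 and 22.5 CPM in sh1Cldn7, and to 128, 56.5, 4.04 and 3.22 CPM in shControl. In the 6 libraries of replicates 3 and 4, C1qb was at 0, Ptprc was at most 0.179 CPM and Adgre1 at most 0.218 CPM. The erythroid markers, 6 of 7 in the table, summed to 310 to 826 CPM in replicates 1 and 2 and to 0.891 to 2.12 CPM in replicates 3 and 4, where Hba-a1, Hba-a2 and Hbb-bs were at 0. The sh2Cldn7 to sh1Cldn7 differences of Hmox1 were -0.80, -0.64, -0.97 and -0.78 in pairs 1 to 4, and those of Slc48a1 were -0.94, -0.71, -0.51 and -0.78. The macrophage markers were also lower in sh2Cldn7 than in sh1Cldn7 in each of pairs 1 to 4. The difference was small in replicate 2 (56.0 and 58.8 CPM) and wide in replicate 4 (4.96 and 22.5 CPM). The part of these cells in the differences of Hmox1 and Slc48a1 was not tested.

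The thioredoxin genes repair oxidised protein thiols with NADPH. Txnrd1 (NCBI Gene 50493; chromosome 10, 82833951 to 82897712, plus strand) encodes the cytosolic thioredoxin reductase, a selenoprotein. It stood at 331, 227, 230 and 281 CPM in sh2Cldn7, at 443, 331, 324 and 427 CPM in sh1Cldn7, and at 374, 308, 270 and 328 CPM in shControl. In it sh2Cldn7 was lowest and sh1Cldn7 highest in every replicate number, with log2 fold changes against shControl of -0.27 (SE 0.06) and 0.25 (SE 0.06).

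Srxn1 (NCBI Gene 76650; chromosome 2, 152105516 to 152111376, plus strand) encodes sulfiredoxin, which restores overoxidised peroxiredoxins. It stood at 81.5, 47.6, 37.4 and 65.4 CPM in sh2Cldn7, at 156, 86.9, 56.2 and 116 CPM in sh1Cldn7, and at 98.9, 62.1, 37.5 and 60.3 CPM in shControl. The sh1Cldn7 library was the highest of all 4 replicate numbers, and this was the largest fold change of the 10 genes with that hairpin, 0.66 (SE 0.09). With sh2Cldn7 it was -0.14 (SE 0.09), and in replicates 3 and 4 the sh2Cldn7 library differed from shControl by -0.0046 and 0.12.

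Set side by side, the 10 genes differed in which hairpin stood apart from the control in every pair. With sh2Cldn7, 7 of 10 were lower than shControl in 4 of 4 pairs (12.8% of all genes tested), all but Hmox1, Srxn1 and Taldo1. With sh1Cldn7, 6 of 10 were higher in 4 of 4 pairs (11.8% of all genes), namely Hmox1, Txnrd1, Srxn1, G6pdx, Aox1 and Slc48a1, and 1, Nqo1, was lower in 4 of 4 pairs (12.6%). Txnrd1, G6pdx, Aox1 and Slc48a1 were in both sets, so 4 of 10 lay below the control with sh2Cldn7 and above it with sh1Cldn7 in every pair, against 0.652% of all genes. The median log2 fold change was -0.38 with sh2Cldn7 and 0.26 with sh1Cldn7, where all genes had medians of 0.0044 and -0.0019. Both comparisons share the 4 shControl libraries and hold the hairpin libraries that chose the members, so these counts are descriptions.

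**Figure D2:**
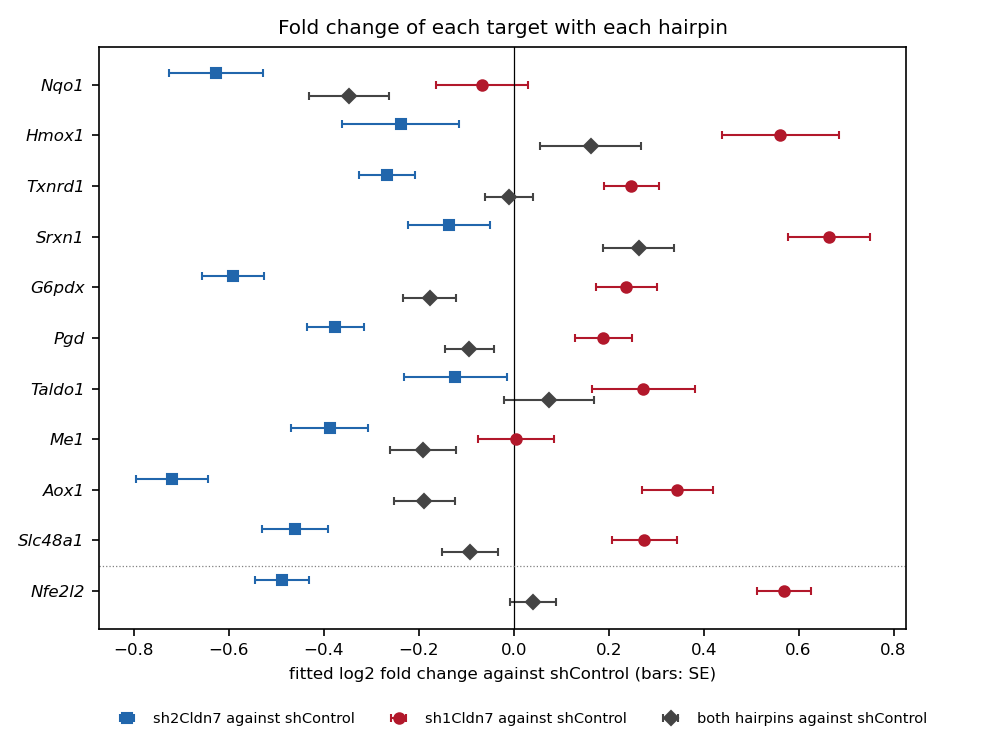
Fitted log2 fold change against shControl (bars: SE) of the 10 targets and Nfe2l2 with sh2Cldn7 (squares), sh1Cldn7 (circles) and both hairpins together (diamonds). All 10 squares lie left of 0 and 9 of 10 circles right of it, while the diamonds run from -0.35 (Nqo1) to 0.26 (Srxn1).

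Taking both hairpins together against shControl gives the mean of their changes, so changes in opposite directions cancel. This contrast does not use the difference that chose the genes, and it does not show that either hairpin alone left a gene unchanged. None of the 10 targets passed the threshold of 0.05 (0 of 10, where 1.79% of all genes passed in edgeR, 0.84% higher and 0.946% lower), and 5 of 10 had an unadjusted p under 0.05, as had 17.2% of all genes. Their median log2 fold change was -0.09, with 7 negative and 3 positive, and that of all genes was -0.0024. With 1 library left out the median of the 10 ran from -0.136 (without shControl replicate 4) to -0.0586 (without shControl replicate 3). Nqo1 came nearest, at -0.35 (SE 0.08, edgeR adjusted p = 0.0650), with both hairpins' mean below shControl in 4 of 4 pairs. Srxn1 was at 0.26 (SE 0.07, edgeR adjusted p = 0.109) and higher in 4 of 4 pairs, and G6pdx at -0.18 (SE 0.06, edgeR adjusted p = 0.137) and lower in 4 of 4 pairs. In all, 3 of 10 were lower in 4 of 4 pairs (12.3% of all genes) and 1 was higher (10.8%). Txnrd1 was at -0.0097 (SE 0.05, edgeR adjusted p = 0.950), with a 95% interval from -0.11 to 0.09. DESeq2 with the replicate number in the model called 3 of the 10, Nqo1 (adjusted p = 0.00391), Srxn1 (0.0304) and G6pdx (0.0460). That fit called 1145 of all genes, against 304 in edgeR. When sh2Cldn7 replicate 3 was left out, edgeR called Nqo1 (adjusted p = 0.00575), in a fit that called 554 of all genes. Without the replicate number in the model, edgeR called 0 of the 10, and 0 had an unadjusted p under 0.05.

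The levels also varied with the replicate number. The mean over the 3 groups differed between the highest and the lowest replicate number by 1.39 times (Txnrd1) to 3.01 times (Hmox1), against 1.12 times for Nfe2l2. Replicate 1 was the highest for 9 of the 10, at 693 CPM for Nqo1 where replicate 3 had 363 CPM. Replicate 3 was the exception for Me1, at 351 CPM, where replicate 4 had 171 CPM. The lowest replicate differed by role: it was replicate 3 for Nqo1, Hmox1, Txnrd1, Srxn1, Aox1 and Slc48a1, and replicate 4 for G6pdx, Pgd, Taldo1 and Me1. The fibroblast markers, 8 of 8 found, summed in replicate 4 to 8479, 4745 and 3877 CPM in sh2Cldn7, sh1Cldn7 and shControl, and in replicate 3 to 500, 244 and 216 CPM. In replicate 1 they summed to 2206, 1239 and 1461 CPM, and in replicate 2 to 685, 1208 and 1061 CPM. They were thus higher in sh2Cldn7 than in sh1Cldn7 in replicates 1, 3 and 4 and lower in replicate 2. The part of the fibroblast markers in the levels was not tested. The basal and myoepithelial markers, 8 of 8, summed to 2062, 3286, 2495 and 1837 CPM in sh2Cldn7 replicates 1 to 4, to 1867, 3228, 1105 and 1306 CPM in sh1Cldn7, and to 1468, 3345, 851 and 841 CPM in shControl. They were thus higher in sh2Cldn7 than in sh1Cldn7 in 4 of 4 pairs, the contrast along which the 10 targets were lower, and their part in it was not tested.

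Levels relative to each other are given per kilobase of exon (RPKM, from exon lengths of GENCODE M21). The length joins the exons of all annotated transcripts of a gene, so the order of the genes depends on that choice. In shControl, Nqo1 was by far the most abundant at 354 ± 121 RPKM (SD, n = 4). G6pdx at 93.0 ± 26.6 RPKM, Taldo1 at 92.4 ± 30.5, Me1 at 70.5 ± 28.5, Hmox1 at 67.0 ± 31.2, Pgd at 61.5 ± 12.4, Slc48a1 at 56.7 ± 15.9 and Txnrd1 at 45.2 ± 6.09 formed a group whose neighbours did not differ beyond their SD. Srxn1 at 22.9 ± 9.01 RPKM and Aox1 at 9.49 ± 2.67 were the lowest. Nfe2l2 itself stood at 28.9 ± 1.99 RPKM.

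Over the 12 libraries, and after each value was set against the mean of its replicate number, the log2 CPM of the targets went with that of Nfe2l2. Pearson's r ran from 0.71 for Nqo1 and 0.79 for Me1 to 0.96 for Pgd and Txnrd1. Before that step r ran from 0.37 (Taldo1) to 0.69 (Txnrd1). Among the 45 pairs of targets the median r was 0.82 after the step (0.43 to 0.99) and 0.68 before it (-0.30 to 0.98). These are descriptions over libraries that share replicate numbers, and depth went with those numbers. Several of the targets were picked for following Nfe2l2 between the hairpins, so the positive r after the step follows in part from that choice.

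**Figure D3:**
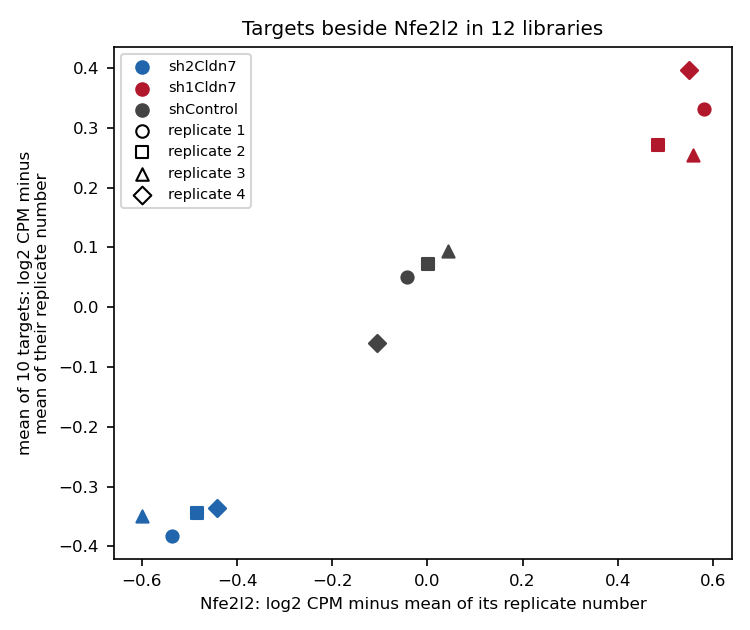
Mean log2 CPM of the 10 targets (vertical) beside that of Nfe2l2 (horizontal) in 12 libraries, each minus the mean of its replicate number; colours are groups and shapes replicate numbers. The sh2Cldn7 libraries stand at the lower left, the shControl libraries in the middle and the sh1Cldn7 libraries at the upper right.

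By the same measure, the 5 genes outside the 10 whose profile was most like the mean profile of the targets, among 13109 genes, were Gstm1 (r = 0.99), Gstp1 (0.98), Nfe2l2 (0.98), Pir (0.98) and Gstp-ps (0.97). The targets were picked for following Nfe2l2 between the hairpins, so its place here follows in part from that choice. All 5 are given as descriptions. Gstm1 and Gstp1 encode glutathione S-transferases and Pir encodes pirin, an iron-binding nuclear protein. Gstp-ps is a pseudogene close in sequence to Gstp1, so reads of the pair may have been split between them and both are uncertain.

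The other genes of the pathway were taken as 6 lists, which were chosen with earlier results of these data known. Among 15 regulators and partners of NRF2, Keap1, which encodes its inhibitor, rose with both hairpins together by 0.26 (SE 0.04, edgeR adjusted p = 0.0175) and 14 did not pass. Keap1 averaged 94.1 ± 11.3 CPM in sh2Cldn7, 102 ± 11.2 in sh1Cldn7 and 81.7 ± 9.92 in shControl (SD, n = 4 each), and its call was lost without shControl replicate 1 or 4 (edgeR adjusted p = 0.0589 and 0.0748). Between the hairpins, where 3.44% of all genes passed (1.57% higher and 1.87% lower), Nfe2l2 had a log2 fold change of -1.06 (SE 0.06), a value the choice of the targets used and which is given with no test. Of the 14 others, Mafk, a small MAF partner, fell in sh2Cldn7 against sh1Cldn7 (-0.37, SE 0.08, edgeR adjusted p = 0.0415). Mafk passed only without sh2Cldn7 replicate 3 or shControl replicate 3 or 4, and its edgeR adjusted p reached 0.149 among the other libraries left out.

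Glutathione synthesis and transferase genes had the most calls of the 6 lists between the hairpins: 10 of 28 fell in sh2Cldn7 against sh1Cldn7. Of all genes tested, 1.87% passed as lower in this contrast. The list was chosen with earlier results of these data known, so its calls are no independent evidence. The log2 fold change was -1.76 (SE 0.12) for Gsta3, an alpha-class transferase, -1.18 (SE 0.08) for Gstm1, -1.12 (SE 0.10) for Gstp1 and -0.80 (SE 0.07) for Gclm, the modifier subunit of glutamate-cysteine ligase, with edgeR adjusted p from 0.000141 to 0.000579. These 4 passed whichever library was left out. The count of 10 was 5 without replicate 1 of sh2Cldn7 or of sh1Cldn7, and 6 without sh2Cldn7 replicate 4 or sh1Cldn7 replicate 2 or 4. With both hairpins together 1 of 28 fell, the microsomal transferase Mgst1 (-0.29, SE 0.06, edgeR adjusted p = 0.0480), where 0.946% of all genes passed as lower. With 1 library left out, Mgst1 passed only without sh2Cldn7 replicate 2 or 3 and reached an edgeR adjusted p of 0.190 without another library.

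In the 4 lists nearest to the 10 targets fewer genes passed. Of all genes tested, 3.44% passed between the hairpins and 1.79% with both hairpins together. The single calls between the hairpins in the NADPH and quinone lists are near that share. Of 20 further thioredoxin and peroxiredoxin genes, 2 fell between the hairpins, the methionine sulfoxide reductase Msrb1 (-0.39, SE 0.08, edgeR adjusted p = 0.0287) and the sestrin Sesn3 (-0.34, SE 0.07, edgeR adjusted p = 0.0325), and Sesn3 alone fell with both hairpins together (-0.29, SE 0.06, edgeR adjusted p = 0.0458). Of 18 other genes that supply NADPH or its precursors, Nadk2, the mitochondrial NAD kinase, was the 1 that passed, and it rose in sh2Cldn7 against sh1Cldn7 (0.43, SE 0.08, edgeR adjusted p = 0.0171). With both hairpins together edgeR called 0 of these 18 and DESeq2 2, and the unadjusted p was under 0.05 for 6, against 17.2% of all genes; edgeR called 1 without sh2Cldn7 replicate 2 or 3. Of 23 tested quinone, aldehyde and xenobiotic genes, Pir alone fell between the hairpins (-0.90, SE 0.12, edgeR adjusted p = 0.00467). With both hairpins together edgeR and DESeq2 each called 0 of these 23, and 0 had an unadjusted p under 0.05, against 17.2% of all genes. Of 22 heme and iron genes, ferritin heavy chain Fth1 (-0.71, SE 0.10, edgeR adjusted p = 0.00604) and biliverdin reductase Blvrb (-0.63, SE 0.12, edgeR adjusted p = 0.0209) fell in sh2Cldn7 against sh1Cldn7, while the heme-binding membrane protein Pgrmc1 rose (0.31, SE 0.06, edgeR adjusted p = 0.0176). Pgrmc1 fell with both hairpins together against shControl (-0.29, SE 0.05, edgeR adjusted p = 0.01996).

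Fth1 averaged 1935 ± 750 CPM in sh2Cldn7, 3144 ± 1129 in sh1Cldn7 and 2839 ± 1148 in shControl (SD, n = 4 each). Pir and Fth1 passed whichever library was left out. Msrb1 and Blvrb each passed in 6 of 12 such fits, Sesn3 in 5 between the hairpins and in 3 with both together, Nadk2 in 8, and Pgrmc1 in 9 between the hairpins and in 6 with both together. Between the hairpins the number of calls in such fits ran from 0 to 4 in the thioredoxin list (4 without shControl replicate 3), from 0 to 2 in the NADPH list (2 without shControl replicate 3), from 1 to 3 in the quinone list (3 without sh2Cldn7 replicate 3) and from 1 to 3 in the heme list (1 without sh1Cldn7 replicate 1 or 2). Median log2 fold changes between the hairpins were -0.46 for the glutathione list, -0.20 for the quinone list, -0.12 for the thioredoxin list, -0.12 for the heme list, -0.10 for the NADPH list and -0.02 for the regulators, against 0.0082 for all genes.

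**Figure D4:**
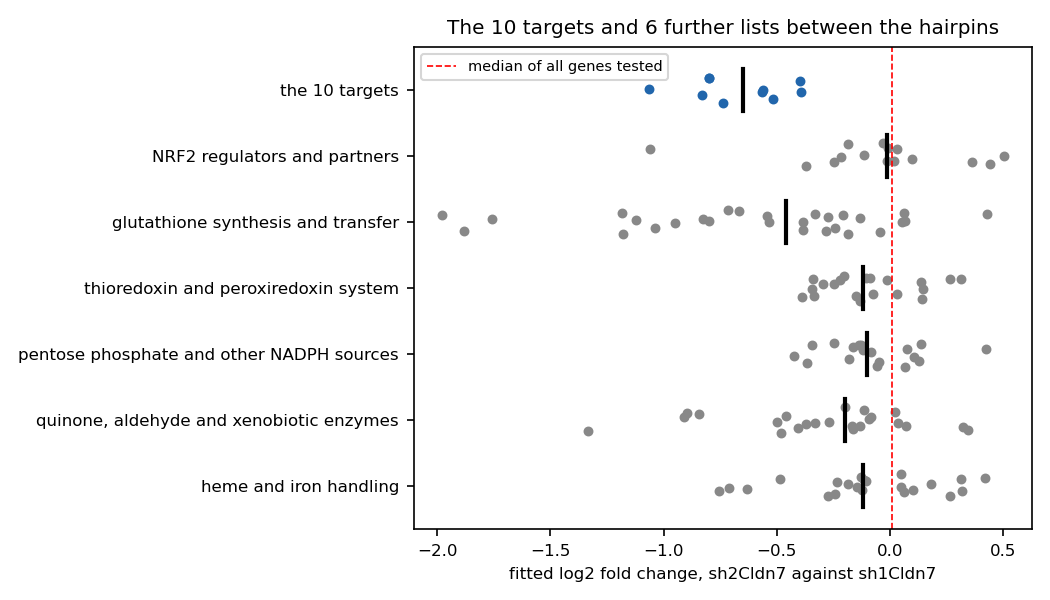
Fitted log2 fold change of sh2Cldn7 against sh1Cldn7 for each tested gene (points) of the 10 targets and of 6 further pathway lists, with the median of each list as a bar and the median of all genes as a dashed line. The 10 targets, chosen by this contrast, lie between -1.06 and -0.39, and the glutathione list has the lowest median of the 6 others, -0.46.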

How the data were processed

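RNA was sequenced in 12 libraries, 4 per group. The authors deposited a table of unnormalized counts with gene numbers and symbols, per the file headers. Trimmomatic 0.39, FastQC 0.74, DESeq2 1.34.0 and the build mm10 appear, with no role given, in the submitters' processing notes; aligner, annotation and strand setting are not given there. Per the labels' protocols, RNA was selected with oligo-dT and libraries made with a NEBNext Ultra kit. No 2 libraries of a group agreed within sampling noise. Replicates 1 and 2 were by far the closest in each group. Their chi-square per degree of freedom was 51.9 in shControl, 55.8 in sh1Cldn7 and 63.8 in sh2Cldn7. The other pairs of libraries of a group lay between 370 and 594, so the 4 replicates may not be equally independent.

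Genes were filtered with filterByExpr (17025 of 25861 kept), TMM-scaled and tested with edgeR 4.0.16 (glmQLFit, glmQLFTest; R 4.3.3) on the 12 libraries jointly; p-values were adjusted by Benjamini-Hochberg across the genes kept, at a threshold of 0.05. The model held the group and the replicate number as a block, since the rule of the members compares libraries by replicate number. Same-numbered libraries of different groups were paired in their deviations from the group means (correlations 0.855 to 0.916, others -0.807 to 0.727); that they pair rests on the title numbers and on these correlations. The biological coefficient of variation was 0.141 with the block and 0.648 without it. Pair differences use log2 CPM (prior count 2), and 95% intervals are normal intervals from the SE. The fit was tested on simulated data with known changes in sh2Cldn7 only. That check did not cover the contrast of both hairpins together, nor changes as small as those of the targets in it. DESeq2 1.42.0 was an alternative.

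The members and lists were chosen with earlier results of these data known. Named genes were all members, Nfe2l2, Cldn7, up to 4 genes of smallest p past the threshold in each list and tested contrast, and the 5 genes most and least like the members' mean profile (mean of at least 2 CPM). Akr1b3 was not matched by symbol and Cyp2a5 was left out for low counts. Positions and exon lengths come from GENCODE M21 on GRCm38 (mm10).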

Additional observations from a re-analysis of the deposited data

Results flagged for a closer look

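Nqo1 stood at 441 CPM in sh2Cldn7 replicate 1, far from the other 3 libraries of its group, which lay between 307 and 325 CPM; replicate 1 was also the highest for Nqo1 in sh1Cldn7 and shControl. This was 1 of 30 groups of 4 libraries looked at, and chance alone sets apart about 1 in 20.

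For 4 of the 10 targets every sh2Cldn7 library lay below and every sh1Cldn7 library above the shControl library of its replicate number. Of all genes tested, 0.652% had this pattern. The log2 fold changes of the 4 targets in sh2Cldn7 against sh1Cldn7 were -1.06 for Aox1, -0.83 for G6pdx, -0.74 for Slc48a1 and -0.52 for Txnrd1. The difference was not tested, since it chose the genes.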

How the results depend on the processing

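Without the replicate block, 1 gene passed with both hairpins together (Cldn7, edgeR) and 1 between the hairpins (Nfe2l2, by which the targets were picked), against 304 and 585 with it; at an unadjusted p under 0.05 there were 406 and 490. DESeq2 with the block gave 1145 and 1436 genes, replicates 1 and 2 alone 25 and 84, and replicates 3 and 4 alone 5 and 42, where fewer libraries were fitted. With 1 library left out the counts ranged from 39 to 554 and from 165 to 672. The count of 304 was 554 and 135 without sh2Cldn7 replicates 3 and 4, 100, 110, 135 and 105 without sh1Cldn7 replicates 1 to 4, and 54, 93 and 39 without shControl replicates 1, 3 and 4. The count of 585 was 252 and 296 without sh2Cldn7 replicates 1 and 4, and 197, 205, 165 and 189 without sh1Cldn7 replicates 1 to 4. Of the 10 targets, 0 to 1 passed with both hairpins together when 1 library was left out, and 3 in DESeq2. The sign with both hairpins together turned for Hmox1 in replicates 1 and 2 alone (-0.0511), for Txnrd1 in replicates 3 and 4 alone (0.0666) and with no filter on low counts (0.0034), and when 1 library was left out (ranges -0.00067 to 0.26 for Hmox1, -0.0389 to 0.0439 for Txnrd1 and -0.0124 to 0.22 for Taldo1); the cause was not tested. Between the hairpins, each of the 10 targets kept its negative sign in all 18 alternatives. That contrast chose the genes from these same libraries, so the kept sign is a description and no test. The median of the 10 between the hairpins ran from -0.72 to -0.62 with 1 library left out. It was -0.73 in replicates 1 and 2 alone and -0.61 in replicates 3 and 4 alone. Between the hairpins DESeq2 called 5 regulators, 14 glutathione, 7 thioredoxin, 2 NADPH, 4 quinone and 5 heme genes, against 2, 10, 2, 1, 1 and 3 in edgeR, with Nfe2l2 counted among the regulators; without the replicate block edgeR called Nfe2l2 and 0 in the other 5 lists. Depth was not limiting, with at least 2144 counts of each target in each library.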

Other observations

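The 5 genes whose profile over the 12 libraries, each value set against the mean of its replicate number, ran most opposite to the mean profile of the 10 targets were Atrx (r = -0.98), Tmprss4 (-0.97), Nav2 (-0.96), Pgm2l1 (-0.96) and Tcf7l1 (-0.96). Atrx encodes a chromatin remodeller, Tmprss4 a membrane serine protease and Tcf7l1 a transcription factor of the WNT pathway. Their log2 fold changes of sh2Cldn7 against sh1Cldn7 were 0.18 for Atrx, 1.37 for Tmprss4, 0.64 for Nav2, 0.62 for Pgm2l1 and 0.74 for Tcf7l1. These are descriptions over 12 libraries, out of 13109 genes compared.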
